A study of Mus musculus with 8 samples.

Results

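The elastic fibre and microfibril genes are 10 genes whose products build the elastic component of the matrix: Eln, Fbn1, Fbn2, Fbln1, Fbln2, Fbln5, Mfap4, Mfap5, Emilin1 and Efemp2. They were taken by symbol from a table of 52110 gene rows with a symbol. All 10 were found, each on a single row, and all 10 passed the filter on low counts, as did 17360 genes in all. RNA was sequenced from wild-type (WT) primary mouse lung fibroblasts grown in serum-containing medium. Untreated cells were set beside cells kept for 48 hours with recombinant TWEAK at 10, 30 or 100 ng/ml, with 2 libraries per group and 8 in all. TWEAK is a cytokine of the TNF superfamily. Nothing in the labels states that replicate libraries are from different animals or cultures. The p-values therefore measure only how far replicate libraries differ, and that spread may be technical.

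An elastic fibre has a core of cross-linked elastin laid on a scaffold of microfibrils. The microfibrils are polymers of fibrillins, to which microfibril-associated glycoproteins, fibulins and emilins bind, and lysyl oxidases join the elastin monomers into an elastic polymer. In the lung these fibres give alveolar walls, airways and vessels their recoil, and fibroblasts and smooth muscle cells make them. Microfibrils also hold latent TGF-beta in the matrix through latent TGF-beta binding proteins.

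Total counts ranged from 37278985 to 50810783 per library, and the 2 replicates differed beyond counting noise in every group (chi-square per degree of freedom between 22.7 and 27.6), so none was counted as a duplicate. All 9 fibroblast markers examined were detected, with a summed level between 11147 and 21634 CPM (counts scaled to a common library total of 1e6 with TMM factors). The 5 epithelial markers summed to at most 0.187 CPM, with Epcam and Nkx2-1 at 0 counts in every library. On the first principal component of log2 CPM the libraries labelled 100 ng/ml (-36.19 and -37.71) lay nearer to the untreated libraries (-67.56 and -66.54) than those labelled 10 ng/ml (61.44 and 62.57) did. The size of the response therefore did not follow the labelled dose. Groups are given here as labelled, and whether the labels of the doses are right was not tested.

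At 10 ng/ml the group split into a single gene that rose and a majority that fell. Eln rose 1.69-fold, while Fbln1 fell to 0.175, Fbn2 to 0.263, Fbln5 to 0.338 and Mfap4 to 0.38 of the untreated level. Fbln2, Mfap5, Efemp2 and Fbn1 fell by smaller amounts, to between 0.634 and 0.745 of it, and Emilin1 did not pass the test. In all, 1 gene rose and 8 fell of the 10, where 15.0% of all genes tested rose and 14.2% fell (edgeR adjusted p under 0.05). The median log2 change of the 10 genes was -0.60, beside 0.01 over all genes tested. In bulk RNA, fewer cells of a type and less RNA per cell cannot be told apart.

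At 30 ng/ml 1 gene rose and 6 fell, where 12.6% of all genes rose and 10.7% fell, with a median log2 change of -0.50 beside 0.01 over all genes. The single rise was again that of Eln. Mfap5, Emilin1 and Fbn2 did not pass the test. At 100 ng/ml none of the 10 was called, where 1.12% of all genes were (edgeR adjusted p under 0.05). At an unadjusted p under 0.05 there were 3, namely Eln, Fbln1 and Fbln5, and DESeq2 and limma-voom called 0. Over all genes 2017 of 17360 had such an unadjusted p, and edgeR called 194, DESeq2 558 and limma-voom 192. The median log2 change of the 10 genes at this dose was -0.13. These 3 comparisons share the untreated libraries.

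**Figure D1:**
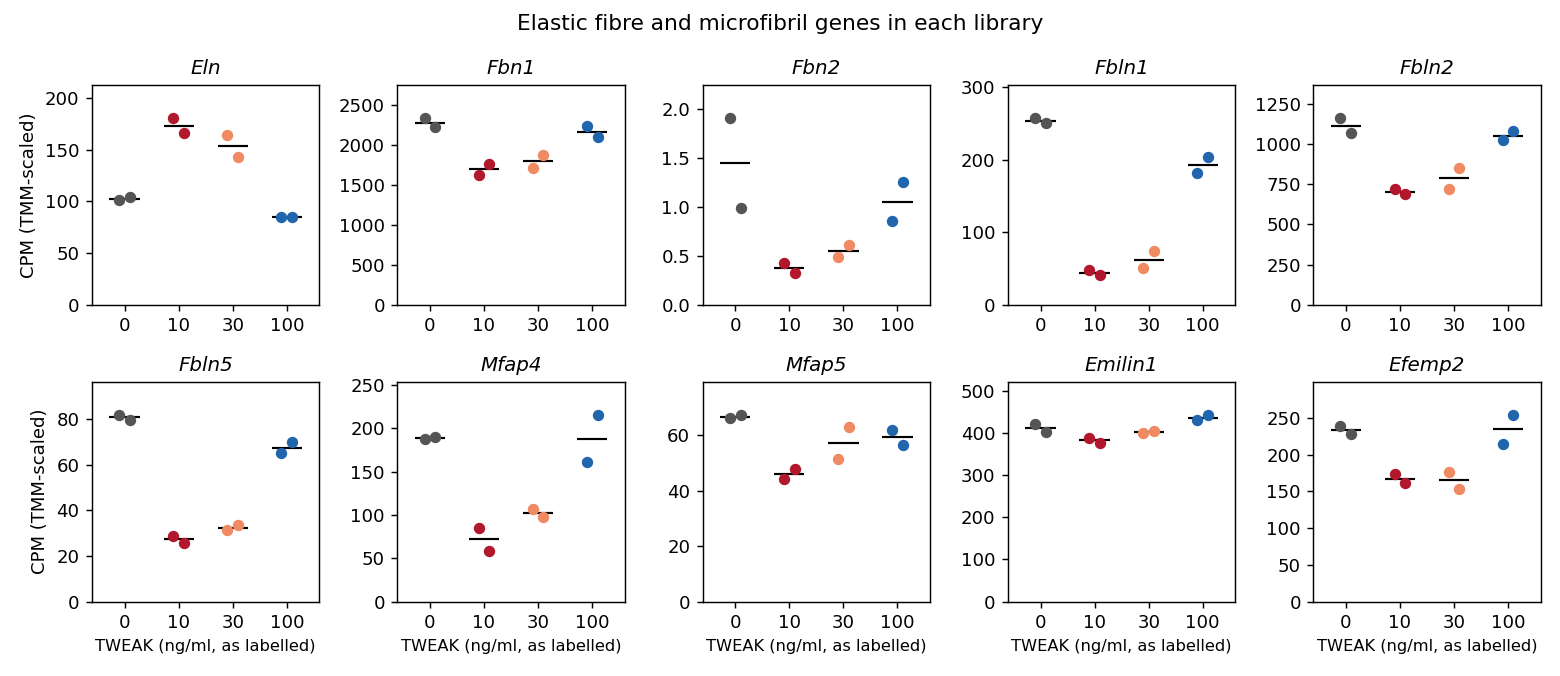
Level of each of the 10 genes in every library, in TMM-scaled CPM on a linear axis from 0, against the labelled TWEAK dose in ng/ml. Each point is a library and each line the mean of 2. Eln stands between 143 and 180 CPM at 10 and 30 ng/ml, above its untreated libraries, while Fbln1, Fbln5 and Mfap4 lie below theirs.

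Eln, which encodes elastin itself (ENSMUSG00000029675.12, chromosome 5 from 134702593 to 134747323 on mm10), stood at 101 and 104 CPM in the untreated libraries. It stood at 180 and 166 CPM at 10 ng/ml, at 164 and 143 at 30 ng/ml, and at 85.1 and 84.9 at 100 ng/ml. The libraries of the 2 lower doses were all above the untreated ones, and those labelled 100 ng/ml were below them, without overlap. Here and below, such separation of 2 libraries from 2 is not a test, and its share over all genes was not counted. The log2 change was 0.76 ± 0.08 (SE) at 10 ng/ml (edgeR adjusted p = 0.000366) and 0.58 ± 0.08 at 30 ng/ml (edgeR adjusted p = 0.00185). At 100 ng/ml it was -0.27 with a 95% interval from -0.46 to -0.07 and did not pass the test (edgeR adjusted p = 0.246). Set directly against 10 ng/ml, the level at 100 ng/ml was lower by 1.03 ± 0.08 on the log2 scale (log2 change -1.03, edgeR adjusted p = 0.00015), and against 30 ng/ml the log2 change was -0.85 ± 0.08 (edgeR adjusted p = 0.000597). Of the annotated exon length of Eln, 3.3% overlaps Gm30003 on the other strand, which had between 0 and 11 counts in a library.

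The 5 genes whose levels over the 4 groups were most like those of Eln were Slfn9, Dock5, Mthfd2, Gch1 and Phospho2. Likeness was the root mean square difference of group mean log2(CPM + 0.5) after centring each gene, and it ran from 0.0356 to 0.0636 among 10605 candidate genes. Slfn9 stood at 21 CPM in untreated cells, 34.4 and 33.6 at 10 and 30 ng/ml, and 17 at 100 ng/ml. Mthfd2, a mitochondrial enzyme of folate metabolism, stood at 33, 55.4, 50 and 30.1 CPM in the same order. Gch1, which starts tetrahydrobiopterin synthesis, stood at 11, 20.4, 18.8 and 9.4 CPM.

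Fbn1, which encodes fibrillin 1, the main structural protein of microfibrils, had the most abundant RNA of the 10. Its libraries held 2333 and 2226 CPM untreated, 1628 and 1766 at 10 ng/ml, 1716 and 1880 at 30 ng/ml, and 2234 and 2097 at 100 ng/ml. All 4 libraries of the 2 lower doses lay below the untreated ones, whereas those labelled 100 ng/ml overlapped them. The fall was modest, a log2 change of -0.43 ± 0.06 at 10 ng/ml (edgeR adjusted p = 0.00173) and -0.34 ± 0.06 at 30 ng/ml (edgeR adjusted p = 0.00628). The change at 100 ng/ml was -0.07, with a 95% interval from -0.22 to 0.07. Fbn1 (ENSMUSG00000027204.13) lies on chromosome 2 from 125300594 to 125507993, and 20.1% of its exon length overlaps Gm9913 on the other strand. The 2 cannot be told apart where counting ignored strand. Gm9913 itself had 88 to 186 counts in a library, which does not show how reads in the shared part were counted.

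Fbn2, the gene of fibrillin 2 and best known from developing elastic tissue, had by far the least abundant RNA of the 10. It had 95 and 49 counts untreated, 16 and 14 at 10 ng/ml, 22 and 26 at 30 ng/ml, and 34 and 50 at 100 ng/ml. The untreated libraries themselves differed, at 1.9 and 0.983 CPM. The log2 change at 10 ng/ml was -1.93 ± 0.49 (edgeR adjusted p = 0.0198), with the largest standard error among the called changes of the 10 genes against untreated cells. The call was lost without untreated replicate 1 (-1.38, edgeR adjusted p = 0.143), TWEAK10 replicate 1 (0.0634) or TWEAK10 replicate 2 (0.101), and by limma-voom (0.0522). At 30 ng/ml the change was -1.39 (95% interval -2.47 to -0.31, edgeR adjusted p = 0.0704). Fbn2 (ENSMUSG00000024598.9) lies on chromosome 18 from 58008623 to 58210487.

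Mfap4, a fibrinogen-related glycoprotein that binds elastin and fibrillin, changed more than Mfap5 and Emilin1 did at 10 and 30 ng/ml. Its libraries held 187 and 190 CPM untreated, 84.7 and 58.5 at 10 ng/ml, 107 and 98 at 30 ng/ml, and 161 and 215 at 100 ng/ml. The 2 lower doses lay wholly below the untreated libraries, and those labelled 100 ng/ml fell on either side of them. The log2 change was -1.40 ± 0.19 at 10 ng/ml (edgeR adjusted p = 0.000974) and -0.88 ± 0.18 at 30 ng/ml (edgeR adjusted p = 0.0109). Leaving out TWEAK30 replicate 2 ended the call at 30 ng/ml (edgeR adjusted p = 0.0612). The fitted change at 100 ng/ml was -0.00 with a 95% interval from -0.43 to 0.42. Mfap4 (ENSMUSG00000042436.12) lies on chromosome 11 from 61485431 to 61488900, and 4.63% of its exon length overlaps Mapk7, which had between 1405 and 2084 counts in a library.

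Mfap5, a small glycoprotein that binds fibrillins, fell at 10 ng/ml, from 66.3 and 67.3 CPM to 44.3 and 47.9. Its libraries stood at 51.5 and 62.9 CPM at 30 ng/ml and at 61.9 and 56.6 at 100 ng/ml, so that every treated library was below both untreated ones. Only the change at 10 ng/ml passed the test, at -0.54 ± 0.11 on the log2 scale (edgeR adjusted p = 0.00714), against -0.22 (edgeR adjusted p = 0.183) and -0.17 (edgeR adjusted p = 0.596) at the higher doses. Mfap5 (ENSMUSG00000030116.14) lies on chromosome 6 from 122505845 to 122529290.

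Emilin1, a glycoprotein at the interface of elastin and microfibrils, varied least. Its 8 libraries ran from 376 to 442 CPM, and its log2 change was -0.10 at 10 ng/ml with a 95% interval from -0.23 to 0.02 (edgeR adjusted p = 0.187). At 30 ng/ml the change was -0.03 and at 100 ng/ml 0.09, neither past the test. Those intervals ran from -0.16 to 0.09 and from -0.04 to 0.21. Emilin1 (ENSMUSG00000029163.9) lies on chromosome 5 from 30913402 to 30921277 and shares no exon with another gene.

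**Figure D2:**
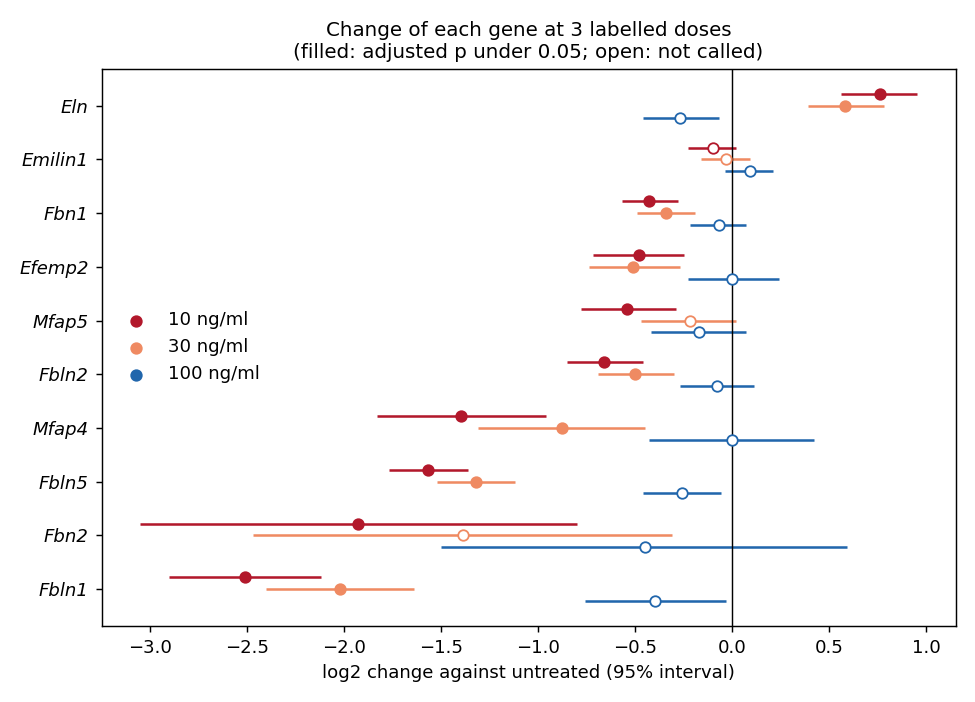
Log2 change of each gene against untreated cells at 10, 30 and 100 ng/ml, with its 95% interval as a horizontal line. Filled points passed the edgeR test at an adjusted p under 0.05 and open points did not. Eln alone lies to the right of 0 at 10 and 30 ng/ml with a called change, and every point for 100 ng/ml is open.

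Fibulins are calcium-binding glycoproteins with repeated EGF-like modules that sit on elastic fibres and basement membranes. Fbln1 showed the largest change of the 10 at both lower doses. Its libraries held 257 and 251 CPM untreated, 47.4 and 41.6 at 10 ng/ml, 51.1 and 73.8 at 30 ng/ml, and 182 and 204 at 100 ng/ml. No treated library reached the untreated range, and the libraries labelled 100 ng/ml lay between it and the rest. The log2 change was -2.51 ± 0.17 at 10 ng/ml (edgeR adjusted p = 2.63e-05) and -2.02 ± 0.16 at 30 ng/ml (edgeR adjusted p = 0.000105). Only 1.88% of all genes tested had a lower change at 10 ng/ml. At 100 ng/ml it was -0.40 (95% interval -0.76 to -0.03) and did not pass after adjustment (edgeR adjusted p = 0.381). Fbln1 (ENSMUSG00000006369.14) lies on chromosome 15 from 85205949 to 85286535.

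Fibulin 5, encoded by Fbln5, binds elastin monomers and integrins and is needed in mice to lay elastin on microfibrils. Its libraries held 81.8 and 79.8 CPM untreated, 28.9 and 25.7 at 10 ng/ml, 31.3 and 33.4 at 30 ng/ml, and 65.3 and 69.9 at 100 ng/ml. Every treated library was below both untreated ones, and the 2 lower doses were far below. The log2 change was -1.57 ± 0.09 at 10 ng/ml (edgeR adjusted p = 1.39e-05) and -1.32 ± 0.09 at 30 ng/ml (edgeR adjusted p = 4.29e-05). At 100 ng/ml it was -0.26 (95% interval -0.46 to -0.06, edgeR adjusted p = 0.275). Fbln5 (ENSMUSG00000021186.9) lies on chromosome 12 from 101746565 to 101819055.

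The sequences before the starts of Fbln1 and Fbln5 are shown because these 2 genes fell together at both lower doses with the smallest p-values of the 10. They are the 250 bases before a RefSeq start on GRCm38.p6, the assembly also called mm10, written 5′ to 3′ on the gene's own strand. Capitals mark a GC box, GGGCGG on either strand.
Fbln1 (chr15:85205699-85205948, + strand): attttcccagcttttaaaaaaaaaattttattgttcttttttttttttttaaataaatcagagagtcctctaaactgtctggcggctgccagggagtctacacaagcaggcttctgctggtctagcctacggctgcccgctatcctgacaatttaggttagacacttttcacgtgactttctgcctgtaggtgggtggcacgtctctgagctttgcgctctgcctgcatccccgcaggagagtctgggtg
Fbln5 (chr12:101819120-101819369, - strand): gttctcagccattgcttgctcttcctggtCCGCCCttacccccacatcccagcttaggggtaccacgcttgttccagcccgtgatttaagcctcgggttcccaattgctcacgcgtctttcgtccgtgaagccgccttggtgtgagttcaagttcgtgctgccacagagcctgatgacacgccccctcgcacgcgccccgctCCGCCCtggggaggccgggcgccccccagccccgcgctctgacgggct
The Fbln5 sequence holds 2 GC boxes and the Fbln1 sequence none. Each gene has a second, partly or wholly separate RefSeq start, not printed, with 1 GC box for Fbln1 and none for Fbln5, so the contrast between the printed pair depends on the start taken. A RefSeq entry was found for 6 of the 10 genes (Efemp2, Emilin1, Fbln1, Fbln2, Fbln5 and Fbn1), with 10 entries in all, some overlapping. A GC box stood in 7 of these entries, beside 32.7% of all 32851 entries. The TATA box (the letters TATAAA), the AP-1 motif (TGANTCA) and a kappaB motif of 10 letters (GGGA, any letter, TTTCC) stood in none of the 10 entries. All were searched on both strands and counted whether or not they overlapped. They stood in 12.4%, 6.75% and 0.356% of all entries. A kappaB motif that rare would seldom be met in 10 entries, so its absence is uninformative. So few entries, from 6 genes and some overlapping, also say little on the TATA box and the AP-1 motif. A match here describes letters in a window and not a bound site.

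Fbln2, the most abundant fibulin of the group and a component of basement membranes and elastic fibres, stood at 1158 and 1065 CPM untreated and at 720 and 688 at 10 ng/ml. It stood at 721 and 852 CPM at 30 ng/ml and at 1022 and 1080 at 100 ng/ml. The 2 lower doses did not reach the untreated libraries, and those labelled 100 ng/ml overlapped them. The log2 change was -0.66 ± 0.08 at 10 ng/ml (edgeR adjusted p = 0.000755) and -0.50 ± 0.08 at 30 ng/ml (edgeR adjusted p = 0.00383). Fbln2 (ENSMUSG00000064080.12) lies on chromosome 6 from 91212455 to 91272540.

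Efemp2 encodes fibulin 4, which brings lysyl oxidase to elastin. It stood at 239 and 228 CPM untreated, 174 and 161 at 10 ng/ml, 176 and 154 at 30 ng/ml, and 215 and 254 at 100 ng/ml. The 2 lower doses were similar and below the untreated libraries. The log2 change was -0.48 ± 0.10 at 10 ng/ml (edgeR adjusted p = 0.00916) and -0.51 ± 0.10 at 30 ng/ml (edgeR adjusted p = 0.00899). These calls were lost without untreated replicate 1 (edgeR adjusted p = 0.0562 and 0.0578), without TWEAK10 replicate 2 (0.0586) and without TWEAK30 replicate 2 (0.0554) respectively. Efemp2 (ENSMUSG00000024909.15) lies on chromosome 19 from 5473954 to 5482517, and 4.57% of its exon length overlaps Mus81, which had between 578 and 742 counts in a library.

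Between doses, none of the 10 genes was called between 30 and 10 ng/ml, where 0% of all genes were called. At an unadjusted p under 0.05 there were 4 of the 10 (1208 of all genes), and DESeq2 called 0 of the 10 and 131 of all genes. The 4 were Fbln1, Fbln5, Mfap4 and Mfap5, each higher at 30 ng/ml, with log2 differences between 0.25 and 0.52. Against 10 ng/ml, the libraries labelled 100 ng/ml were higher in 8 of the 10 and lower in 1, where 10.7% of all genes were higher and 11.2% lower. Against 30 ng/ml they were higher in 6 and lower in 1, where 7.15% were higher and 8.04% lower. The 1 lower gene was Eln in both. Fbln1 was 4.33-fold higher at 100 than at 10 ng/ml (log2 change 2.11 ± 0.17, edgeR adjusted p = 0.000115), Mfap4 2.62-fold (edgeR adjusted p = 0.00145) and Fbln5 2.48-fold (edgeR adjusted p = 6.46e-05).

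The calls on 2 genes between 100 and 10 ng/ml were weak. For Emilin1 (log2 change 0.19, edgeR adjusted p = 0.0388) the call was lost without any 1 of the 8 libraries, with edgeR adjusted p between 0.0568 and 0.155. For Mfap5 (log2 change 0.36, edgeR adjusted p = 0.0466) it was lost without any 1 of the untreated, TWEAK10 or TWEAK100 libraries, with edgeR adjusted p between 0.0762 and 0.205. Both were also lost with the replicate number as a block, at 0.0662 and 0.0623, and with no filter on low counts, at 0.0562 and 0.0741. That on Emilin1 was lost by DESeq2 (0.058) and in a fit of only the groups compared (0.0836), and that on Mfap5 with library totals (0.056). The 7 calls between 100 and 30 ng/ml became 3 without TWEAK100 replicate 2 and 4 without TWEAK30 replicate 1. Fbn1 was lost there without TWEAK30 replicate 1 (0.142), TWEAK100 replicate 1 (0.144) or TWEAK100 replicate 2 (0.0505), in a fit of only the groups compared (0.0613) and with the replicate block (0.0503). Fbln2 was lost without TWEAK30 replicate 1 (0.0551) or TWEAK100 replicate 2 (0.0755), and Efemp2 without TWEAK30 replicate 2 (0.0721) or TWEAK100 replicate 2 (0.0739). Mfap4 was lost without TWEAK30 replicate 1 (0.0687), TWEAK30 replicate 2 (0.0826) or TWEAK100 replicate 2 (0.0893). Efemp2 between 100 and 10 ng/ml was lost without TWEAK10 replicate 2 (0.0743) or TWEAK100 replicate 2 (0.069).

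Levels of different genes were compared per kilobase of annotated exon. The length was that of all annotated exons of a gene joined, not of the transcript in use. The order of genes and any ratio between genes therefore depend on the annotation, while the change of a single gene between libraries does not. A sum over the 10 genes per kilobase, a gene's share of that sum, and their changes between libraries depend on it too. In untreated cells the order of CPM per kilobase was Fbn1 at 188 ± 6.21 (SD, n = 2), Fbln2 at 174 ± 10.3, Mfap4 at 97.9 ± 1.11, Emilin1 at 83.2 ± 2.89, Efemp2 at 61.7 ± 2.08 and Fbln1 at 58.1 ± 0.99. Below these came Mfap5 at 18.6 ± 0.18, Eln at 12.6 ± 0.273, Fbln5 at 11.7 ± 0.208 and Fbn2 at 0.109 ± 0.0489. Fbn1 and Fbln2 differed by less than their SDs added together. At 10 ng/ml the order below Fbn1, at 140 ± 8.06, and Fbln2, at 111 ± 3.56, continued with Emilin1 at 77.4 ± 1.85 CPM per kilobase. Efemp2 (44.2 ± 2.57) and Mfap4 (37.2 ± 9.64) followed and differed by less than their SDs added together. Eln, at 21.4 ± 1.21, stood above Mfap5 (12.8 ± 0.708), Fbln1 (10.2 ± 0.935) and Fbln5 (3.95 ± 0.323).

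The level of Eln RNA relative to that of its partners was read within each library. Protein was not examined. As a share of the Fbn1 level per kilobase, Eln stood at 6.47% and 6.99% in the untreated libraries, 16.6% and 14.1% at 10 ng/ml, 14.3% and 11.4% at 30 ng/ml, and 5.71% and 6.07% at 100 ng/ml. Every library of the 2 lower doses was above every other library. Fbln5 stood at 95.1% and 90% of the Eln level per kilobase in untreated cells, at 18.8% and 18.1% at 10 ng/ml, at 22.3% and 27.5% at 30 ng/ml, and at 89.9% and 96.4% at 100 ng/ml. The sum of the 10 genes was 721 and 691 CPM per kilobase untreated and 466 and 450 at 10 ng/ml. Fbln2 made up between 23.2% and 25.8% of that sum in every library, and Fbln1 8.15% and 8.31% of it untreated but 2.33% and 2.12% at 10 ng/ml. With 2 libraries against 2, an exact permutation test could not pass the threshold, so these ratios are given without a test.

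**Figure D3:**
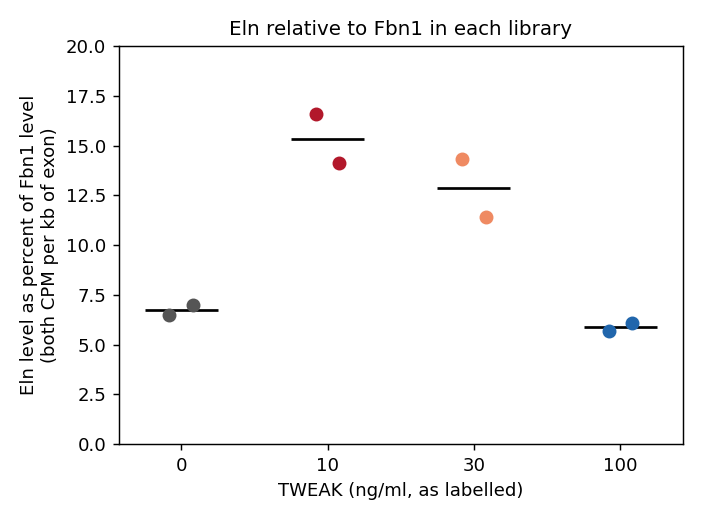
Eln level as a percentage of the Fbn1 level in each library, both in CPM per kilobase of exon, against the labelled TWEAK dose in ng/ml, on a linear axis from 0. Each point is a library and each line the mean of 2. The libraries of 10 and 30 ng/ml lie between 11.4% and 16.6% and the rest between 5.71% and 6.99%.

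Other genes of elastic fibre assembly and turnover were read from 7 lists. Their counts at 10 ng/ml stand beside 15.0% of all genes that rose and 14.2% that fell, and their medians beside 0.01 over all genes. At 100 ng/ml, where 1.12% of all genes were called, a call means that of the edgeR fit of all 8 libraries unless another is named. Among relatives of the 10 genes, 6 of 10 tested fell and 1 rose at 10 ng/ml, with a median log2 change of -0.79. Efemp1, which encodes fibulin 3, fell from 376 ± 11.8 to 115 ± 4.53 CPM (log2 change -1.71 ± 0.11). Hmcn1, the large fibulin hemicentin 1, fell from 138 ± 0.958 to 53 ± 6.76 CPM, and Mfap2, a partner of fibrillin, from 42 ± 1.37 to 18.7 ± 1.68 CPM. The single rise was that of Emilin3, named after its values were seen, which had 0 counts in untreated cells and 199 at 10 ng/ml, at least 82.6-fold higher against 3 counts over the untreated group. It had 3 counts at 100 ng/ml. No gene of this list passed the test at 100 ng/ml.

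The lysyl oxidases Lox, Loxl1 and Loxl2, which cross-link elastin and collagen, all fell at 10 ng/ml, and the other 3 of that list (Loxl3, Loxl4 and the copper transporter Atp7a) did not pass the test. The list's median log2 change was -0.41. Lox fell from 462 ± 9.62 to 108 ± 3.31 CPM, a log2 change of -2.09 ± 0.12 (edgeR adjusted p = 1.5e-05). Loxl1 fell from 660 ± 55.9 to 354 ± 40 CPM and Loxl2 from 333 ± 4.53 to 118 ± 9.3 CPM. In the libraries labelled 100 ng/ml Lox stood at 372 ± 0.694 CPM, a change that did not pass the test (edgeR adjusted p = 0.346).

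Of 7 genes for TGF-beta ligands and their latent binding proteins, 5 fell and 2 rose at 10 ng/ml (median log2 change -0.69). Ltbp2, which binds microfibrils but not latent TGF-beta, rose from 484 ± 1.1 to 1978 ± 8.56 CPM and was also called at 100 ng/ml, at 918 ± 1.05 CPM (log2 change 0.93 ± 0.04, edgeR adjusted p = 0.00012). Exons of Ltbp2 overlap D030025P21Rik over 9.34% of their length. Tgfb1 rose from 50.1 ± 0.524 to 137 ± 5.19 CPM. Ltbp1, which does bind latent TGF-beta, fell from 455 ± 1.17 to 226 ± 1.56 CPM, and Ltbp3, Ltbp4, Tgfb2 and Tgfb3 fell as well.

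Among ADAMTS proteases and ADAMTS-like proteins of microfibrils, 6 of 8 fell and none rose at 10 ng/ml (median log2 change -0.96). Adamtsl3 fell from 231 ± 19.9 to 33.6 ± 2.4 CPM, Adamts10 from 97.1 ± 2.1 to 50.5 ± 0.788 CPM and Adamtsl4 from 34.1 ± 1.66 to 17.3 ± 0.447 CPM. ADAMTS10 and ADAMTSL4 are tied to microfibril disorders in human. edgeR called none of the list at 100 ng/ml (Adamtsl3 had an adjusted p of 0.077 and Adamts10 of 0.0803), and other settings called up to 2, the highest count by DESeq2.

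Elastin-degrading proteases moved in both directions at 10 ng/ml, with 4 of 8 tested higher and 2 lower (median log2 change 0.33). Mmp9, a gelatinase that also cuts elastin, rose from 0.16 ± 0.0278 to 359 ± 30.6 CPM. Mmp12, macrophage elastase, rose from 2.38 ± 0.149 to 9.17 ± 0.267 CPM, and Mmp2 fell from 687 ± 8.77 to 323 ± 7.48 CPM. Mmp9 was the only one of the list called at 100 ng/ml, at 12.5 ± 0.982 CPM (log2 change 6.26 ± 0.24, edgeR adjusted p = 0.00012), a call that limma-voom did not make (adjusted p = 0.0894). Over the alternatives the list held 0 to 2 calls at this dose, with 2 by DESeq2 and without either TWEAK30 library.

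Of 6 protease inhibitors, 2 fell and 1 rose at 10 ng/ml (median log2 change -0.43). Timp3, which binds to matrix and blocks metalloproteinases, fell from 1584 ± 36.3 to 200 ± 13.5 CPM and Cst3, the cysteine protease inhibitor cystatin C, from 458 ± 23.7 to 256 ± 30.6 CPM, while Timp1 rose from 327 ± 0.648 to 622 ± 8.2 CPM. Exons of Timp3 overlap Syn3 over 21.3% of their length. Timp3 (log2 change -0.70) and Timp1 (0.39) were called at 100 ng/ml, at edgeR adjusted p = 0.0077 and 0.0153. The call on Timp3 was lost without untreated replicate 1 (0.0612) or TWEAK100 replicate 1 (0.0581), and that on Timp1 without untreated replicate 1 (0.126), untreated replicate 2 (0.112) or TWEAK100 replicate 2 (0.0758), and in a fit of only the groups compared (0.0615).

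Of 9 integrin subunits tested that serve as receptors for these proteins, 4 rose and 3 fell at 10 ng/ml (median log2 change 0.57). Itga8 fell from 207 ± 7.77 to 24.5 ± 1.3 CPM and was the 1 subunit that edgeR called at 100 ng/ml, at 119 ± 5.26 CPM (log2 change -0.80 ± 0.08, edgeR adjusted p = 0.00342). Itgb5 fell from 386 ± 13.9 to 233 ± 14.3 CPM, and Itga5, a fibronectin receptor subunit, rose from 174 ± 2.52 to 259 ± 1.56 CPM. A second subunit was called at that dose by DESeq2, in a fit of only the groups compared and without either TWEAK30 library. At 30 ng/ml, where 12.6% of all genes rose and 10.7% fell, 1 of 10 relatives rose and 6 fell, 3 of 6 cross-linking genes fell, and 2 of 7 TGF-beta genes rose and 5 fell. Of the 8 ADAMTS genes 6 fell, of the 8 proteases 3 rose and 2 fell, of the 6 inhibitors 2 rose and 2 fell, and of the 9 integrin subunits 4 rose and 3 fell.

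**Figure D4:**
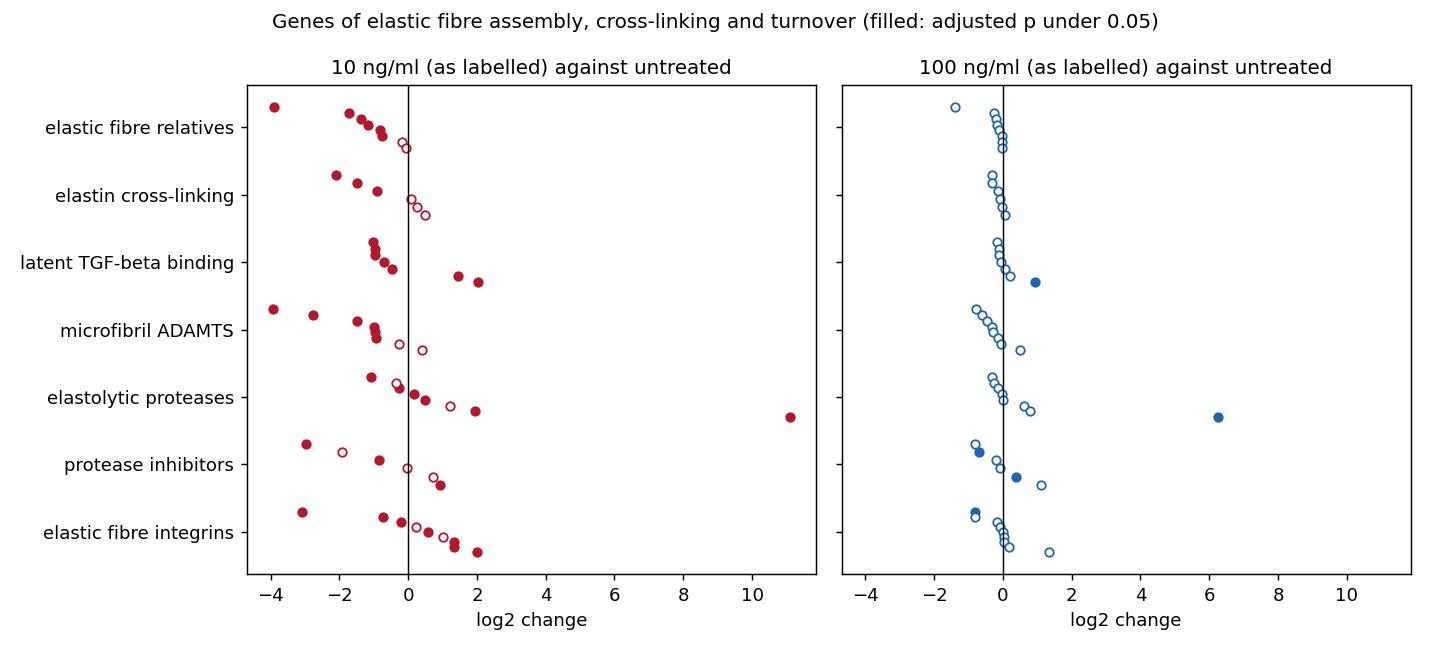
Log2 change of each gene of the 7 lists against untreated cells at 10 ng/ml (left) and 100 ng/ml (right), with a point for each gene. Filled points passed the edgeR test at an adjusted p under 0.05, and genes with 0 counts in both libraries of any group are left out. The point farthest right in each panel is Mmp9, at 11.10 and 6.26.

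Marker lists of other cell types were read in the same libraries. The summed level of 7 smooth muscle markers ran from 1174 to 1235 CPM untreated, 893 to 1078 at 10 ng/ml, 993 to 1180 at 30 ng/ml and 1042 to 1384 at 100 ng/ml, with 4 lower and 1 higher at 10 ng/ml. The sum of 5 pericyte markers was 43.1 CPM in each untreated library and ran from 23.8 to 26.6 at 10 ng/ml, 26.1 to 30.6 at 30 ng/ml and 42.3 to 45.2 at 100 ng/ml, with Higd1b at 0 throughout. Of the 4 tested, 2 rose at 10 ng/ml (Rgs5 8.64-fold, edgeR adjusted p = 0.00171, and Cspg4 3.5-fold, edgeR adjusted p = 0.0079) and 2 fell (Kcnj8 and Abcc9). The sum of 5 mesothelial markers ran from 12.9 to 13.4 CPM untreated, 4.54 to 6.2 at 10 ng/ml, 4.3 to 5.31 at 30 ng/ml and 8.67 to 11.2 at 100 ng/ml, with 2 of 4 tested lower at 10 ng/ml. The sum of the 9 fibroblast markers ran from 21327 to 21634 CPM untreated and from 11147 to 11267 at 10 ng/ml. It ran from 11996 to 13237 at 30 ng/ml and from 18936 to 19960 at 100 ng/ml. At 10 ng/ml 6 were lower and 3 higher (Pdgfra, Dcn and Vim). Much of the fall of the sum was that of Col3a1, from 8913 ± 59.7 to 1911 ± 35.3 CPM. The sum of 6 myeloid markers ran from 11.6 to 15.3 CPM untreated and from 21.7 to 27.3 in the treated libraries, with 1 of them (Cd68) higher at 10 ng/ml. That of 5 endothelial markers ran from 4.93 to 6.24 CPM over all libraries, with Emcn at 0 throughout. Within it Cdh5 rose at 10 ng/ml from 0.15 ± 0.042 to 4.04 ± 0.327 CPM (edgeR adjusted p = 4.07e-05) and Tek fell from 4.74 ± 0.34 to 1.46 ± 0.322 CPM (edgeR adjusted p = 0.00146), of 3 markers tested. The part of these cells in the changes of the 10 genes was not tested.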

How the data were processed

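RNA-seq counts per gene were used as deposited by the authors. The submitters' processing notes name mm10, STAR and StringTie. The counter, annotation and strand setting were not given in the sources used here. Of 55335 table rows, 3225 without a symbol, holding 0.168% to 0.178% of each library's counts, were left out. All 8 libraries entered 1 fit with edgeR 4.0.16 in R 4.3.3 (filterByExpr, TMM, quasi-likelihood F-test, Benjamini-Hochberg adjustment over 17360 genes, threshold 0.05). SEs are the log2 change divided by the square root of F, and 3 counts correspond to between 0.059 and 0.0805 CPM. Tests were checked on simulated data. Exon lengths and positions came from GENCODE M21 on mm10, and promoters from RefSeq.

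The members and lists were chosen with earlier results of these data known. All 10 members are named. So are, for each list, the 3 genes with the smallest p at 10 ng/ml and any gene called at 100 ng/ml. The 5 candidate genes nearest to Eln, with a mean of at least 5 CPM, are named as well. Alternatives were DESeq2 1.42.0, limma-voom (limma 3.58.1), other scalings and filters, a fit of only the groups compared, a replicate block, leaving out each library and, chosen after seeing the data, leaving out both TWEAK100 libraries.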

Additional observations from a re-analysis of the deposited data

Results flagged for a closer look

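Eln differed between doses in its level. It rose against untreated cells at 10 and 30 ng/ml. At 100 ng/ml its lower fitted level against untreated cells did not pass the test (log2 change -0.27, edgeR adjusted p = 0.246), so a fall there is not established. The difference between doses passed the edgeR test, with a log2 change of -1.03 for 100 against 10 ng/ml and of -0.85 for 100 against 30 ng/ml. Both libraries labelled 100 ng/ml lay below every library of the other groups. The comparisons with untreated cells share the untreated libraries.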

How the results depend on the processing

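Of 32 called results on the 10 genes, 21 kept their call under all of the up to 17 other fits, which leaves aside the threshold on size, and none changed sign. Requiring a log2 change of at least 1 left 4 of the 10 at 10 ng/ml, 2 at 30 ng/ml, 4 between 100 and 10 ng/ml and 2 between 100 and 30 ng/ml. The share of all genes that met this size threshold was not counted, so these 4 counts have no background beside them. Leaving out 1 library gave 7 to 9 calls at 10 ng/ml, 5 to 7 at 30 ng/ml, 6 to 8 between 100 and 10 ng/ml and 3 to 7 between 100 and 30 ng/ml. Over all genes the same ranges were 3392 to 4839, 2540 to 3831, 2406 to 3545 and 1380 to 2468, with 91 to 237 at 100 ng/ml and 3 to 62 between 30 and 10 ng/ml. DESeq2 called 558 genes at 100 ng/ml and 131 between 30 and 10 ng/ml, where a fit of only those groups called 5 and one without both TWEAK100 libraries 3.

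Same-numbered libraries did not deviate together, with correlations of replicate differences between -0.0463 and 0.0282 over 6 pairs of groups. Whether they share a culture is not stated in the labels, and these values cannot decide it. With the replicate number as a block the calls on the 10 genes were 9, 7 and 0 at 10, 30 and 100 ng/ml, 0 between 30 and 10, 7 between 100 and 10, and 6 between 100 and 30 ng/ml. Over all genes the block gave, in the same order, 4661, 3578, 136, 0, 3340 and 2231 calls. The main fit, without a block, gave 5075, 4041, 194, 0, 3816 and 2637.

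Signs changed only for uncalled values, and the cause was not tested. Without 1 library, Emilin1 at 30 ng/ml ran from -0.07 to 0.00 and Fbn2 at 100 ng/ml from -0.85 to 0.10, the upper value of each being without untreated replicate 1. Mfap4 at 100 ng/ml was 0.01 with library totals, 0.00 with a mean of at least 1 CPM or a replicate block, and -0.23 to 0.19 without 1 library. Efemp2 at 100 ng/ml was -0.01 by DESeq2, -0.00 by limma-voom, -0.01 with no filter, and -0.12 to 0.12 without 1 library. Without 1 library, Efemp2 between 30 and 10 ng/ml ran from -0.12 to 0.07 and Mfap5 between 100 and 30 ng/ml from -0.08 to 0.20. Depth limits Fbn2, with 14 to 95 counts in a library.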
